A study of Gallus gallus with 4 samples.

Results

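The genes described here are those whose level in the HH10 library of the chick area vasculosa stood at least 2-fold above the highest, or at least 2-fold below the lowest, of the 3 later libraries, HH11, HH12 and HH13. The level of a gene was its FPKM, the fragments mapped to it scaled to its length and to the size of the library, and was compared as log2(FPKM + 1). The comparison covered 11773 genes that reached 1 FPKM in any library. HH10 was higher for 76 genes, 0.646% of those compared, and lower for 54 genes, 0.459%, so 130 genes stood outside the later libraries. The HH10 values themselves chose these genes, so their differences are a description and carry no test. Of the 76 higher genes 24 passed the minimum of 1 FPKM through HH10 alone, and of the 54 lower genes 36 passed it through later libraries alone.

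The libraries came from the area vasculosa of Gallus gallus embryos grown in an incubator to Hamburger-Hamilton stage 10, 11, 12 or 13, with 1 library per stage. All 4 groups were total RNA, and the labels name no treatment, strain or genotype. The number and sex of the embryos behind a library, and whether poly(A) RNA was selected, are details that the sources used here do not give. The 3 later libraries are 3 different stages and not replicates, so stage and library cannot be told apart for any value below. Values in a row are given in stage order, from HH10 or from HH11 after "then".

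The area vasculosa is the inner, vascular ring of the yolk sac around the embryo, where blood islands form the first red cells and vessels over yolk-absorbing endoderm. In birds the female carries a Z and a W chromosome and the male a pair of Z chromosomes, and the W is small, gene-poor and held in many loose scaffolds of early assemblies. Ribosomal, spliceosomal and other small structural RNAs mostly lack a poly(A) tail, whereas messenger RNAs of most proteins carry one.

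Small structural RNAs made up the greater part of the genes that were higher in HH10. Of 140 rows compared that were named for a small RNA, 43 (30.7%) were HH10-higher, against 0.646% of all genes, and 3 were HH10-lower. Under the same rule 8.57% of these rows were higher for HH11, 5.71% for HH12 and 5% for HH13, against 0.442%, 0.161% and 5.39% of all genes. Of the 43 rows, 13 reached 1 FPKM in HH10 alone, so the filter itself favoured a higher HH10 value for them. The HH10-higher rows were 2 of 26 deposited 5S ribosomal RNA rows, 2 of 3 5.8S ribosomal RNA rows, 2 of 5 signal recognition particle (SRP) RNA rows, both RNase P or MRP RNA rows, 1 of 9 7SK rows and 1 of 3 Y RNA rows, and the other rows of these families did not pass the minimum of 1 FPKM and were not compared. They further included 4 of 6 spliceosomal RNA rows, 21 of 69 snoRNA rows, 4 of 10 scaRNA rows and 4 of 45 rows named for a miRNA that passed the minimum of 1 FPKM.

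The summed levels of the ribosomal RNA families were far higher in HH10. Summed 5.8S ribosomal RNA, a part of the large ribosomal subunit, was 56519 FPKM in HH10 and then 4380, 8558 and 13018 FPKM. Summed 5S ribosomal RNA was 5821 FPKM in HH10, listed at 0 in HH11 and HH12, and 237 in HH13. HH11 and HH12 were lowest and HH13 intermediate for both, and HH10 was far above all of them.

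The 7SK RNA, which holds the elongation factor P-TEFb inactive, followed the same order at 1036 FPKM in HH10 and then 24.4, 47.8 and 87.9 FPKM. SRP RNA, which guides secretory proteins to the endoplasmic reticulum, summed to 933, 26.6, 19.7 and 60.2 FPKM in stage order. RNase P and MRP RNAs, the catalytic RNAs of tRNA and ribosomal RNA processing, summed to 600.5, 10.002, 9.80 and 19.9 FPKM. In these 3 families HH13 was again the nearest to HH10, and all later libraries lay far below HH10.

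The spliceosomal rows summed to 901 FPKM in HH10 and then 44.9, 41.3 and 113 FPKM. A U4 row on chromosome 15 (9394644 to 9394784) had 521 FPKM in HH10 and then 8.23, 0 and 32.8 FPKM, and its neighbour at 9394038 to 9394178 had 254, 8.23, 12.1 and 21.9 FPKM. U4 pairs with U6 RNA in the spliceosome, and U11 and U6atac, of the minor spliceosome, were the other spliceosomal rows that were HH10-higher. Their gaps to the nearest later library were smaller than those of U4. U11 had 65.5, 0, 0 and 28.1 FPKM. U6atac had 60.4, 19.3, 29.2 and 25.9 FPKM and lay just inside the rule, with a log2 gap of 1.02. The Y RNA row, a small RNA bound by the Ro protein, had 165 FPKM in HH10 and was listed at 0 in every later library.

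Among snoRNAs, which guide the modification and cutting of ribosomal RNA, the gap was smaller, with a summed level of 3792 FPKM in HH10 and then 1787, 1444 and 1196 FPKM. A U3 row on chromosome 19, the box C/D snoRNA needed to cut the ribosomal RNA precursor, had 965 FPKM in HH10 and then 18.5, 22.7 and 65.6 FPKM. SNORA73 had 320 FPKM in HH10 and then 69.2, 45.4 and 24.01 FPKM. Both stood above every later library, and the later libraries kept no common order, with HH13 highest for U3 and lowest for SNORA73.

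Rows named for a miRNA differed from the other families. Their summed level was 7692 FPKM in HH10 and then 11605, 10141 and 8169 FPKM, lowest in HH10. Much of each sum came from gga-mir-3533, on a locus of 3194 bases. That row had 4677, 7062, 6071 and 4104 FPKM and was lowest in HH13. The sums leave out a row of 684 bases on the mitochondrial genome named gga-mir-3527, counted with the mitochondrial rows. It had 16949, 14151, 16085 and 19131 FPKM. Of the 45 rows, 40 had a locus of 300 bases or more, longer than a miRNA hairpin, and a median log2 difference of -0.10. Whether such a row counts the miRNA or a longer transcript was not tested. The 4 HH10-higher rows were each listed at 0 in the 3 later libraries. They were gga-mir-6572, gga-mir-6597, gga-mir-6652 and the gga-mir-6643 row ENSGALG00000027935, with 621, 222, 222 and 178 FPKM in HH10. Other rows named gga-mir-6643 on that locus did not stand apart. ENSGALG00000001032 had 46.92, 49.99, 48.98 and 41.05 FPKM, and ENSGALG00000028590 had 29.89, 28.80, 28.50 and 28.71 FPKM. A level in a single library was not particular to HH10. Among the rows named for a miRNA, gga-mir-1797 had 1796 FPKM in HH11 alone. In the same way gga-mir-6592 had 28.4 FPKM in HH12 alone and gga-mir-6700 had 440 FPKM in HH13 alone.

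**Figure D1:**
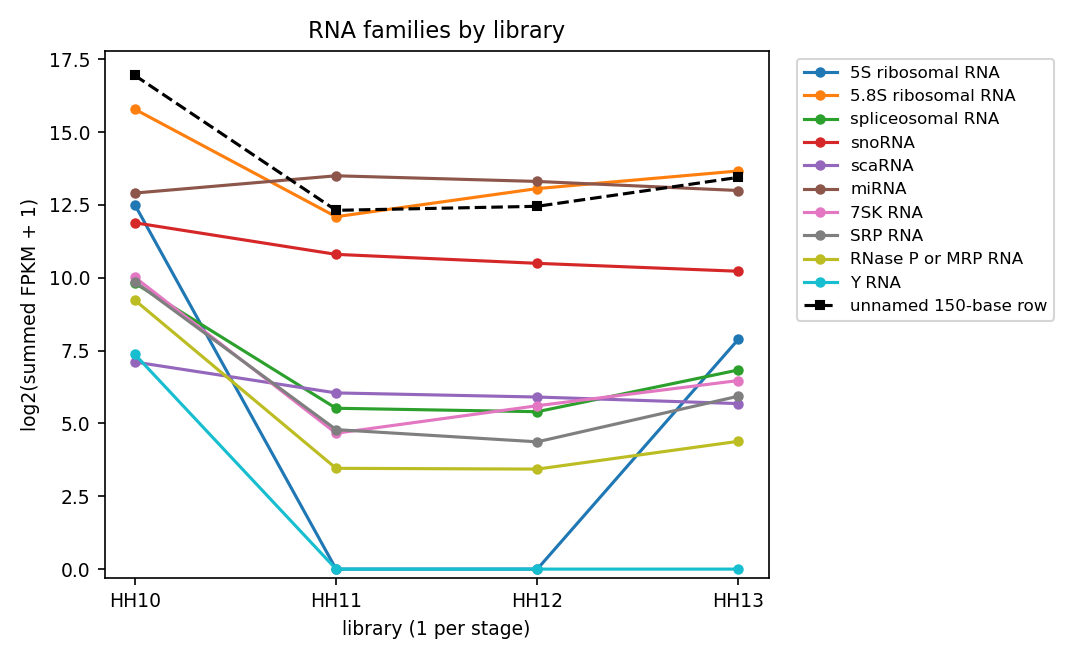
Summed FPKM of each small RNA family, plotted as log2(summed FPKM + 1), in the 4 libraries (1 per stage, with no error bars for want of replicates). The black dashed line is the unnamed row of 150 bases on chromosome 1. All families but the miRNA rows were highest in HH10, and 5S and Y RNA were at 0 in HH11 and HH12.

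The row with the highest level in HH10 was not named in the deposited table. ENSGALG00000026592 (build galGal4, chromosome 1, 100373556 to 100373705) had 126367 FPKM in HH10 and then 5099, 5613 and 11180 FPKM, so HH10 was 24.8, 22.5 and 11.3 times the later values. The 5.8S rows compared lay on either side of it, one ending 21821 bases before it and one starting 12075 bases after it. The nearer of them, at 100385781 to 100385933, had 682 FPKM in HH10, 0 in HH11 and HH12 and 24.5 in HH13. The other, at 100351582 to 100351734, had 55837 FPKM in HH10, with ratios of 12.7, 6.52 and 4.30 to HH11, HH12 and HH13. HH10 was highest for all 3 rows, and HH13 was the highest of the later libraries.

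Vertebrate snoRNAs and scaRNAs usually lie in introns of other genes, and many of these rows shared a deposited locus with another gene. The loci of 20 HH10-higher small RNA rows held 19 other genes, with log2 differences from -0.41 to 0.38 and a median of 0.03. Of the 19, 0 met the 2-fold rule, and at the overall shares of 0.646% and 0.459% few or none would. SNORD15 (ENSGALG00000025564) had 64.3 FPKM in HH10 and was listed at 0 in the later libraries. RPS3, a protein of the small ribosomal subunit on the same locus, had 1977 FPKM in HH10 and then 1764, 2305 and 2087 FPKM. RPSA, RPL21, RPL32, NCL and DKC1 were other genes on these loci, the first 3 for ribosomal proteins, NCL for nucleolin and DKC1 for the pseudouridine synthase dyskerin.

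Neighbouring small RNA rows could also go opposite ways. On the RPSA locus, 1 SNORA62 row (ENSGALG00000017839) had 28.0 FPKM in HH10 and then 7.38, 5.28 and 4.83 FPKM, whereas the other (ENSGALG00000017838) was listed at 0 in HH10 and had 8.26, 5.93 and 10.8 FPKM later. On the TAF1D locus SNORA25 was HH10-higher, with 67.1 FPKM against 14.3, 21.5 and 19.2 FPKM. SNORA32 on that locus was listed at 0 in HH10 and had 29.4, 45.3 and 39.8 FPKM later. SNORA61, the other HH10-lower snoRNA row, was listed at 0 in HH10 and had 46.9, 52.5 and 15.7 FPKM.

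The share of HH10-higher genes was greatest for the shortest loci. It was 51.7% (15 of 29) for loci of 100 to 149 bases, 33.3% (7 of 21) for loci of 150 to 299 bases and at most 2.11% for longer bins. Among loci under 300 bases, 19 of 32 rows with a small RNA name and 3 of 18 without one were HH10-higher. Among loci of 300 bases or more, 24 of 108 rows with a small RNA name and 30 of 11615 without one were. The length is that of the deposited locus, not of the row's own transcript. The 4031 bases given for gga-mir-6597, for example, are a locus that it shares with CTSZ. Equal values occurred between unrelated small RNA rows in HH10, 222 FPKM for both gga-mir-6597 and gga-mir-6652 and 17.1 FPKM for both SNORA14 and SCARNA14. Later libraries held them too. In HH11 both gga-mir-6712 and gga-mir-6690 had 137 FPKM, and in HH12 both SNORA20 and a SNORA55 row (ENSGALG00000017846) had 20.04 FPKM. Levels in HH10 also stood in even steps between rows on loci of 129 bases. They were 27.93 FPKM for SNORA35, 55.87 for ACA64 and 83.8 for SNORA44, and SNORA35 and ACA64 were HH10-higher. Whether such small RNA levels rest on few fragments was not tested. Whether read depth, fragment length or RNA selection differed between the libraries was not tested, since FPKM values keep no read counts.

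Messages of replication-dependent histone genes also end without a poly(A) tail, and histone genes were looked at after the values were seen. Of 8 genes named by histone cluster number or as HIST1, 0 met the 2-fold rule. That rule took 0.646% of all genes as higher and 0.459% as lower. Whether all 8 are replication-dependent was not tested. Of the 8, 6 were highest in HH10, against 18.4% of all genes. The median log2 difference was 0.69 (from 0.01 to 1.05). H4-I, a histone H4 gene, had 235 FPKM in HH10 and then 85.6, 178 and 207 FPKM, so HH12 and HH13 lay near HH10. H2B-V had 8.38, 1.56, 6.27 and 4.55 FPKM, again with HH11 lowest.

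Of the 16 mitochondrial rows, 2 were HH10-higher (12.5%, against 0.646% of all genes), and neither is named in the table. ENSGALG00000018386, of 976 bases at 1297 to 2272 of the mitochondrial genome, had 3546 FPKM in HH10 and then 659, 919 and 1075 FPKM. ENSGALG00000018384, of 1621 bases at 2346 to 3966, had 4014, 1208, 1986 and 1479 FPKM. The first was well above every later library, whereas the second lay just inside the rule, with a log2 gap of 1.01 to HH12, and missed it when libraries were scaled to the same total FPKM. The other 14 rows had log2 differences from -0.25 to 0.49 with a median of 0.13.

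**Figure D2:**
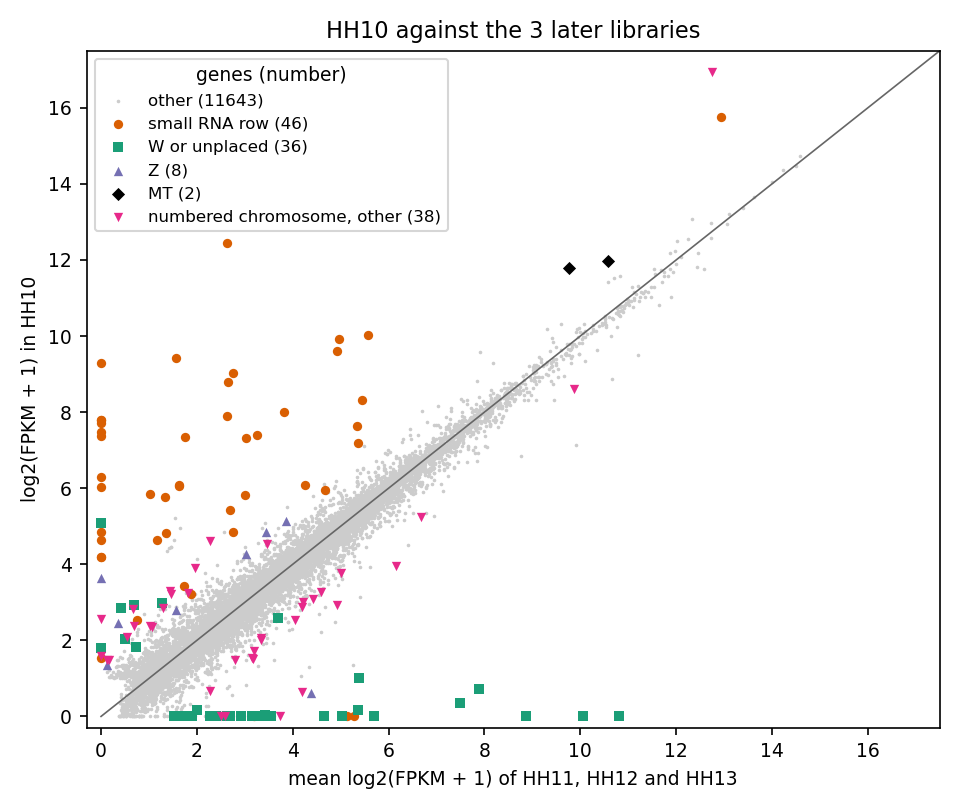
Level in HH10, as log2(FPKM + 1), against the mean of the 3 later libraries for the 11773 genes compared, 1 point per gene, with the diagonal as a line. Coloured points are the 130 genes that met the rule: most of the 46 small RNA rows among them lie far above the diagonal, and of the 36 genes of W and unplaced scaffolds most lie at or near 0 in HH10.

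The genes that were lower in HH10 lay mostly off the numbered chromosomes. On the W chromosome 6 of 7 genes compared were HH10-lower and 0 higher, and on unplaced scaffolds 23 of 558 were lower and 7 higher. Together these were 29 of the 54 HH10-lower genes, although the overall share of lower genes was 0.459%. In the HH10 column, 5 of the 6 W genes were listed at 0 and ENSGALG00000014441 had 0.0349 FPKM. On unplaced scaffolds 15 of the 23 were listed at 0.

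The most abundant of them are known W-linked genes. HINTW, a W-linked relative of the HINT1 nucleotide hydrolase with many near-identical copies, was listed at 0 in HH10 and had 1530 FPKM in HH11, 2389 in HH12 and 1604 in HH13. WPKCI, an older name for a gene of the same family, was listed at 0 and had 999, 1308 and 928 FPKM. How reads were divided between such copies is uncertain, but both were listed at 0 in HH10 and high in each later library.

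ATP5A1W, the W copy of the ATP synthase alpha subunit gene, had 0.654 FPKM in HH10 and then 213, 237 and 264 FPKM. SPINW, the W copy of spindlin, was listed at 0 in HH10 and had 2.76, 2.55 and 2.92 FPKM. In each of the 4 genes HH10 alone was near 0.

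Other HH10-lower genes on unplaced scaffolds carry names that do not say W. HNRPK, an RNA-binding protein of the hnRNP family, had 1.00 FPKM in HH10 and then 39.7, 42.5 and 39.4 FPKM. BTF3, a transcription factor subunit of the nascent polypeptide complex, had 0.115 FPKM and then 34.8, 42.9 and 42.6 FPKM. SMAD7, an inhibitor of TGF-beta and BMP signalling, was listed at 0 and had 4.78, 4.07 and 2.88 FPKM. These 3 were low in HH10 alone. HNRPK and BTF3 had little spread after it, whereas SMAD7 fell from HH11 to HH13.

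FBXL12, an F-box protein, was listed at 0 in HH10 and had 3.60, 3.70 and 19.5 FPKM, so HH13 stood above HH11 and HH12. DHDH, a dihydrodiol dehydrogenase, was the exception at 5.02 FPKM in HH10 against 11.2, 12.5 and 11.9 FPKM, and lay just inside the 2-fold rule. The remaining 14 rows on unplaced scaffolds had no symbol. The highest, ENSGALG00000022685, was listed at 0 and had 462, 441 and 493 FPKM, and ENSGALG00000022174 had 0.286 FPKM and then 176, 207 and 154 FPKM.

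The 6 W rows had no symbol either. ENSGALG00000009227 was listed at 0 in HH10 and had 8.26, 11.1 and 13.4 FPKM later, and ENSGALG00000014184 was listed at 0 and had 10.2, 9.07 and 8.94 FPKM. ENSGALG00000014441, the row above 0, had 8.53, 11.8 and 9.16 FPKM later. The other 3, ENSGALG00000005785, ENSGALG00000029099 and ENSGALG00000027170, were listed at 0 in HH10 and lay between 3.07 and 10.3 FPKM in the later libraries.

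The HH10-lower genes of unplaced scaffolds lay on 22 scaffolds, apart from HINTW, whose summed rows lay on several. All compared genes of unplaced scaffolds carried 442 scaffold labels, of which 1 stands for genes on several scaffolds. On 19 of the 22 the HH10-lower gene was the only gene compared, so these scaffolds cannot show agreement within a scaffold. The others held 2, 2 and 10 compared genes, of which 1 on each was HH10-lower. The 22 held 33 compared genes in all. The 29 HH10-lower genes on W and unplaced scaffolds varied among the later libraries by a median log2 range of 0.42, against 0.52 over all genes compared.

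**Figure D3:**
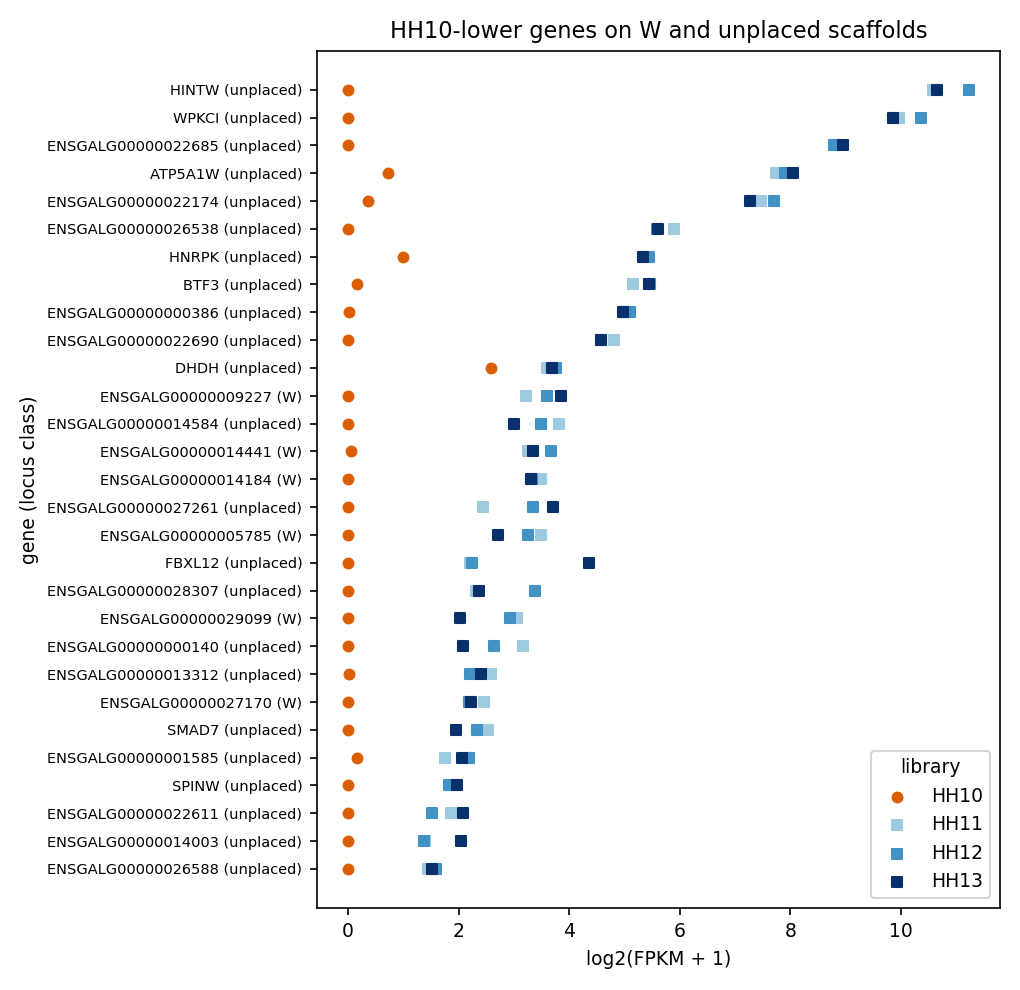
Level, as log2(FPKM + 1), of the 29 HH10-lower genes of W and unplaced scaffolds in each library, 1 row per gene, with HH10 as a circle and the later libraries as squares. The HH10 value is below 1 for all but HNRPK and DHDH and lies left of the later 3 in every row, as the rule requires.

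Genes on Z were higher in HH10 as a class. By the 2-fold rule 7 of 534 (1.31%) were HH10-higher and 1 was lower, but 351 of the 534 (65.7%) were highest in HH10, against 1692 of 10607 genes (15.95%) on numbered chromosomes. The median log2 difference was 0.49 on Z and -0.03 on numbered chromosomes, and the medians of 27 single numbered chromosomes lay between -0.07 and 0.05. Against each later library alone the Z median was 0.51 for HH11, 0.46 for HH12 and 0.47 for HH13. With 1 library per stage this shift carries no test, and stage, library and the sex of the embryos cannot be told apart.

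The Z partners of W genes showed it gene by gene. ATP5A1, the Z copy of the ATP synthase gene, had 1169 FPKM in HH10 and then 613, 629 and 642 FPKM. SPINZ, the Z spindlin, had 34.2, 16.9, 18.8 and 19.9 FPKM, and VCP, an ATPase that extracts ubiquitinated proteins, had 288, 148, 134 and 107 FPKM. HH10 was above every later library in all 3, with log2 differences of 0.90, 0.85 and 1.15 from the later mean. Of 26 compared genes in a list of W genes and their Z partners, 6 were HH10-lower, all on unplaced scaffolds, and 0 HH10-higher. The lower share was 23.1%, against 0.244% of all genes with a symbol. Of the 6 HH10-lower genes, all but HNRPK passed the minimum of 1 FPKM through the later libraries alone. Highest in HH10 were 18 of the 26 (69.2%, against 17.9% of all genes with a symbol). The 6 HH10-lower genes are in the 26 but cannot be among the 18. The Z genes of the list that were not highest in HH10 were MEF2C and VLDL. MEF2C had 1.31, 0.200, 0.929 and 2.53 FPKM, and VLDL had 71.1, 74.2, 61.8 and 16.3 FPKM.

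**Figure D4:**
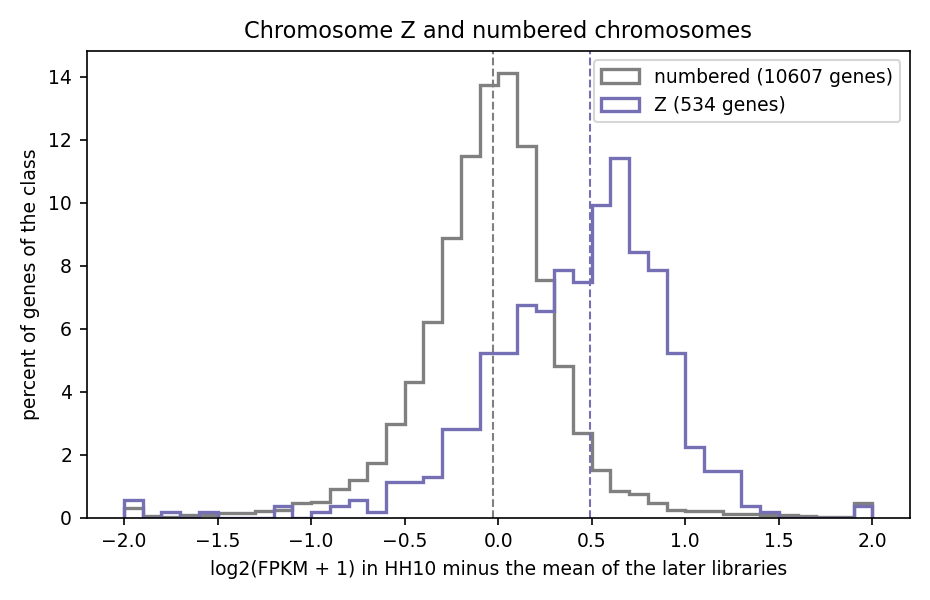
Distribution of the log2(FPKM + 1) level in HH10 minus the later mean over 534 Z genes and 10607 genes of numbered chromosomes, as a percent of each class, with values beyond the axis placed in the end bins. Dashed lines mark the medians, 0.49 on Z and -0.03 on numbered chromosomes.

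The Z genes that passed the rule included FST, follistatin, a secreted antagonist of activin and BMP ligands. FST had 4.47 FPKM in HH10 and then 0.446, 0.0237 and 0.3995 FPKM, so it was near 0 in the later libraries. AK6, a nuclear adenylate kinase, had 34.3 FPKM and then 13.9, 13.5 and 13.2 FPKM. SERINC5, a membrane protein of the serine incorporator family, had 27.9, 13.3, 8.83 and 8.02 FPKM. SERINC5 lay just inside the rule and was lower at each later stage.

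FANCG, of the Fanconi anaemia DNA repair complex, had 18.4 FPKM in HH10 and then 5.32, 8.01 and 8.33 FPKM. C9orf72, a regulator of vesicle traffic and autophagy, had 5.97, 1.61, 2.41 and 1.94 FPKM, and KIAA1045 had 1.55, 0.133, 0.0502 and 0.0707 FPKM. The seventh, ENSGALG00000028920, of 143 bases, had 11.4 FPKM in HH10 and was listed at 0 later. The single HH10-lower Z gene, ENSGALG00000018479, had 0.540 FPKM in HH10 and then 18.4, 18.97 and 22.6 FPKM.

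Away from small RNA rows, few genes of the numbered chromosomes stood apart in HH10. Of 10473 compared, 17 were HH10-higher and 21 HH10-lower. The same rule applied to each later library in turn gave 34 higher and 189 lower for HH11, 9 and 10 for HH12, and 574 and 169 for HH13. Over all 11773 genes the rule took 0.442% as higher and 1.8% as lower for HH11, 0.161% and 0.178% for HH12, and 5.39% and 1.61% for HH13. HH10 and HH13 are the ends of the stage series. The 4 counts come from the same 4 libraries and are not independent.

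Among the HH10-higher genes of numbered chromosomes with a symbol, 3 came from the heart list. TNNT2, cardiac troponin T, had 23.6 FPKM in HH10 and then 7.07, 3.79 and 1.97 FPKM, a log2 difference of 2.34 from the mean of the later libraries. ACTC1, cardiac alpha actin, had 4.21, 1.09, 0.673 and 1.39 FPKM, and NKX2-5, a transcription factor of the heart field, had 1.79, 0.246, 0 and 0.153 FPKM. TNNT2 was lower at each later stage, whereas the other 2 were low throughout the later libraries. Of 19 compared genes in the heart list, these 3 were HH10-higher (15.8%, against 0.185% of all genes with a symbol) and 0 HH10-lower. Of the 3, NKX2-5 reached 1 FPKM in HH10 alone, so the filter itself favoured a higher HH10 value for it. The lists were chosen with earlier results of these data known, so such shares are a description and carry no test. Of the 19, 9 were highest in HH10 (47.4%, against 17.9% of all genes with a symbol). The median log2 difference was 0.31, against -0.01 over all genes.

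Other heart genes differed in pattern. MYL3, a ventricular myosin light chain, had 54.0, 39.0, 17.2 and 12.7 FPKM and missed the rule because of HH11. MYL4, the atrial myosin light chain, was highest in HH13 with 21.8, 19.05, 79.4 and 380 FPKM. Of the 19 genes, 3 were lowest in HH10 and 2 had a log2 difference of -1 or less. The 7 heart markers found in the table, which do not include MYL4, summed to 94.1 FPKM in HH10 and then 50.3, 27.4 and 22.6 FPKM.

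Of 11 somite and muscle genes compared, 2 were HH10-higher (18.2%, against 0.185% of all genes with a symbol). GGMOXR1, a RefSeq synonym of the somite homeobox gene MEOX1, had 6.05 FPKM in HH10 and then 0.124, 0.363 and 1.58 FPKM. FOXC2, a forkhead factor of paraxial mesoderm whose row lies on an unplaced scaffold, had 3.08, 0.808, 0.0596 and 0.503 FPKM. FOXC2 reached 1 FPKM in HH10 alone, so the filter itself favoured a higher HH10 value for it. TBX6, a T-box factor of presomitic mesoderm, had 4.08, 0.222, 1.07 and 3.83 FPKM, so HH13 was near HH10 and the rule was not met. Of the 11 genes, 7 were highest in HH10 (63.6%, against 17.9% of all genes with a symbol) and the median log2 difference was 0.57. TNNT3, fast skeletal troponin T, which is outside the list, had 8.32, 3.05, 2.46 and 0.484 FPKM.

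Of 15 neural genes compared, 1 was HH10-higher (6.67%, against 0.185% of all genes with a symbol). SOX2, a transcription factor of neural progenitors, had 4.16 FPKM in HH10 and then 0.856, 0 and 1.24 FPKM. GBX2, a homeobox gene of the hindbrain boundary, had 6.28, 2.67, 2.37 and 1.11 FPKM and lay just outside the rule. Of the 15 genes 10 were highest in HH10 (66.7%, against 17.9% of all genes with a symbol), with a median log2 difference of 0.84.

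The summed neural and somite markers were low in every library and highest in HH10. The 3 neural markers in the table summed to 9.41, 3.87, 0.695 and 1.82 FPKM in stage order, and the 6 somite markers to 14.8, 1.18, 2.14 and 8.30 FPKM. The 4 notochord and floor plate markers differed, with sums of 16.1, 5.28, 6.65 and 28.2 FPKM, highest in HH13. No heart, neural or somite marker in the table was at 0 in HH10. OTX2 was at 0 in HH13, and SOX2 and NKX2-5 were at 0 in HH12. MYOD1 and MYF5 were at or near 0 in every library, HH10 included. MYOD1 had 0.0519, 0, 0.0473 and 0.0443 FPKM. MYF5 had 0.0659 FPKM in HH10 and was at 0 in all 3 later libraries. In bulk tissue, more cells of a type and more RNA per cell cannot be told apart, and the part of the dissection in these genes was not tested.

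Markers of the cell types of the area vasculosa were present in every library. The 6 yolk sac endoderm markers summed to 11677, 4682, 15054 and 44130 FPKM, the 5 endothelial markers to 99.5, 29.7, 92.1 and 174 FPKM and the 4 blood markers to 1197, 234, 11875 and 26367 FPKM. HH11, not HH10, was lowest for each. Of the list genes, 0 of 41 yolk sac endoderm genes, 0 of 29 endothelial genes, 0 of 24 haem and iron genes and 0 of 8 globin genes were HH10-higher or HH10-lower, even though 6 of the 8 globins had a log2 difference of -1 or less from the later mean. At the overall shares of 0.185% and 0.244% such lists hold few or none, so these counts say nothing particular about them.

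The other HH10-higher genes with a symbol had no common list. GHRH, growth hormone-releasing hormone, had 13.9 FPKM in HH10 and then 2.56, 4.26 and 2.14 FPKM. LRRN1, a leucine-rich repeat membrane protein of the nervous system, had 8.74, 1.99, 0.995 and 2.30 FPKM, and FABP5, a fatty acid-binding protein, had 8.52, 3.09, 2.09 and 2.38 FPKM. C16ORF45 had 22.1, 10.5, 9.49 and 9.96 FPKM and lay just inside the rule. DPYSL4, of the collapsin response mediator family, had 4.07 FPKM in HH10 and at most 1.45 later, and ITIH6, on an unplaced scaffold, had 2.56 FPKM and at most 0.700.

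The rest had no symbol. On numbered chromosomes 6 such genes were HH10-higher, the unnamed row of chromosome 1 among them, and on unplaced scaffolds 5. ENSGALG00000029050, of 127 bases, had the highest level of the 5, with 32.8 FPKM in HH10, and was listed at 0 later.

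**Figure D5:**
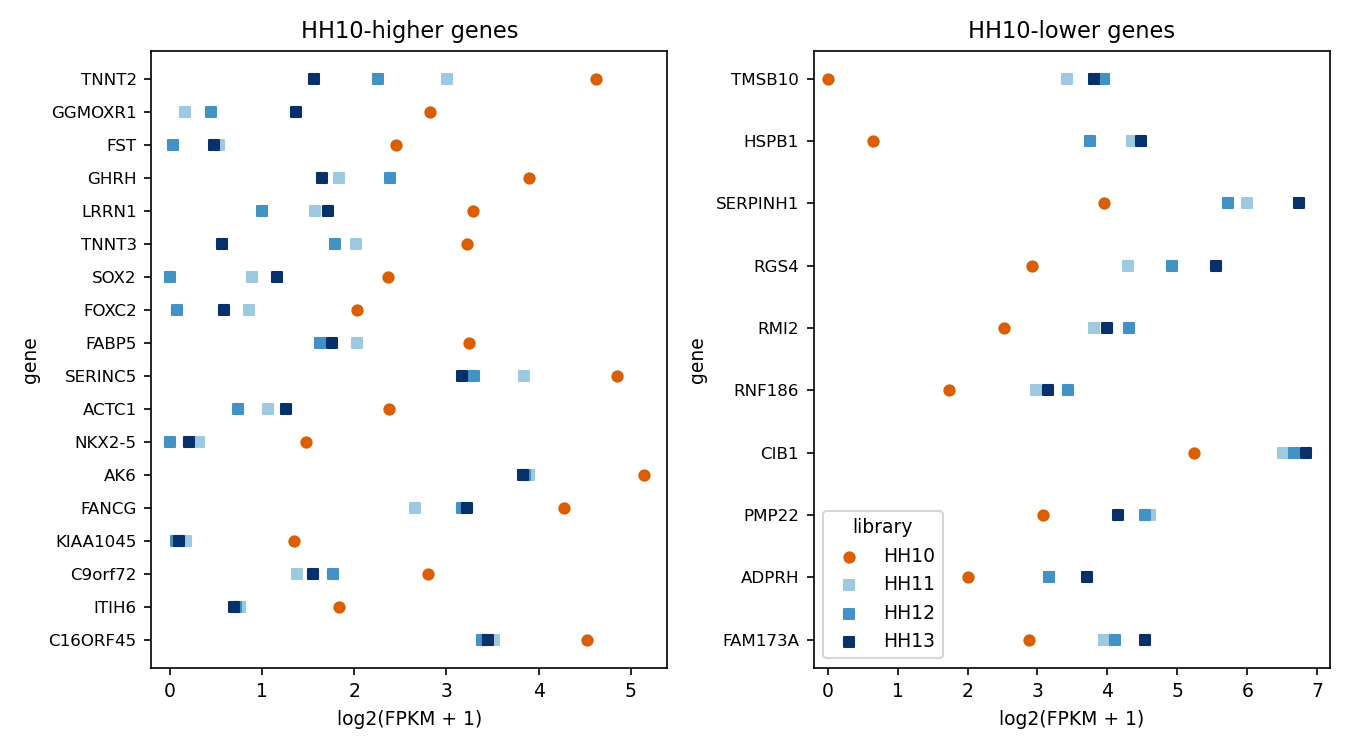
Level, as log2(FPKM + 1), of named HH10-higher (left) and HH10-lower (right) genes in each library, 1 row per gene, with HH10 as a circle and the later libraries as squares. The gap between HH10 and the nearest square is at least 1 in each row, as the rule requires. The right panel shows genes of numbered chromosomes, and TMSB10 and HSPB1 have its widest gaps.

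Leaving out small RNA rows, TMSB10 and HSPB1 had the largest gaps among the HH10-lower genes of numbered chromosomes. TMSB10, thymosin beta 10, which binds actin monomers, was listed at 0 in HH10 and had 9.76 FPKM in HH11, 14.5 in HH12 and 13.0 in HH13. HSPB1, the small heat shock protein Hsp27, had 0.563 FPKM and then 19.4, 12.4 and 21.4 FPKM. SERPINH1, the collagen chaperone Hsp47, had 14.5 FPKM in HH10 and then 62.6, 51.8 and 106 FPKM. HH10 was far below the later libraries in each, and HH13 was the highest library for the last 2.

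RGS4, which shortens signalling by G protein-coupled receptors, had 6.59, 18.7, 29.4 and 45.7 FPKM and was higher at each later stage. ANXA2, the membrane-binding annexin A2, had 392, 1017, 1013 and 797 FPKM, and CIB1, a calcium- and integrin-binding protein, had 36.7, 90.2, 100.4 and 113 FPKM. These 2 were the most abundant of the group and HH11 was already near their later values.

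PMP22, a membrane protein of myelin and epithelia, had 7.43 FPKM in HH10 and then 23.4, 22.1 and 16.7 FPKM. RMI2, of the complex that resolves DNA crossovers, had 4.74, 13.1, 18.7 and 14.99 FPKM. RNF186, a ubiquitin ligase, had 2.31, 6.91, 9.79 and 7.91 FPKM. The later libraries lay within a narrow range for these 3.

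ADPRH, which removes ADP-ribose from arginine, had 3.02, 7.97, 7.99 and 12.03 FPKM, and FAM173A had 6.37, 14.5, 16.3 and 22.1 FPKM. SELM, a selenoprotein of the endoplasmic reticulum, had 12.8, 28.0, 30.3 and 35.4 FPKM. The other genes with a symbol were SPTSSB, a subunit of the first enzyme of sphingolipid synthesis, with 1.84, 4.91, 8.24 and 12.1 FPKM, FAM173B, RPS6KL1 and TNFRSF6B. The group was completed by 5 genes without a symbol. HH11 was the later library nearest to HH10 for 13 of the 21 genes, HH12 for 4 and HH13 for 4.

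Most other stress genes did not pass the rule. Of 29 compared immediate early and heat shock genes in a list, 1 was HH10-lower, HSPB1 (3.45%, against 0.244% of all genes with a symbol). HSPB1 passed the minimum of 1 FPKM through the later libraries alone. In the same list 0 were HH10-higher, but 15 were lowest in HH10, against 2085 of 10246 genes with a symbol. The median log2 difference was -0.37, against -0.01 over all genes. FOS, an immediate early transcription factor, had 8.03, 15.6, 16.7 and 25.2 FPKM, and JUN, its partner, had 30.2, 66.2, 53.7 and 41.4 FPKM. HSP90AA1, a stress-inducible chaperone, had 488, 935, 828 and 533 FPKM, so HH13 was close to HH10. Whether handling of the embryos differed between stages was not tested.

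Over all genes with a symbol, 0.185% were HH10-higher and 0.244% HH10-lower, so lists of this size hold few or none at that share. Of 33 compared genes of BMP and TGF-beta signalling, FST was HH10-higher and SMAD7, on its unplaced scaffold, HH10-lower (3.03% each). FST passed the minimum of 1 FPKM through HH10 alone, and SMAD7 through the later libraries alone. NOG, the BMP antagonist noggin, had 34.3, 65.6, 40.8 and 2.34 FPKM, with HH13 alone low. Of 43 Wnt genes, 21 Hox genes and 42 cell cycle genes, 0 stood apart in either direction, and of 18 lateral plate mesoderm genes NKX2-5 was the 1 that did. Of 29 lists in all, 7 held a gene that stood apart, and 7 of the 19 HH10-higher and 8 of the 25 HH10-lower genes with a symbol were in a list.

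Close to the line, SERINC5 and C16ORF45 were the last inside the HH10-higher rule, both with a log2 gap of 1.01 to the nearest later library. GBX2 (0.99) and VSTM2L (0.98) were the first outside. On the lower side DHDH and ANXA2 were the last inside with a gap of 1.02 each, and RAB7L1 (0.98) and SLC5A8 (0.96) the first outside.

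The authors' deposited table gives q-values for each pair of stages, which rest on no replicate of a stage. In the authors' deposited table, 22 of 11720 genes with a single row had q below 0.05 for HH10 against each of HH11, HH12 and HH13. Of 76 HH10-higher genes 2 were called against all 3, and of 53 HH10-lower genes with a single row 17 were, of which 16 were listed at 0 in HH10. Of the 28 HH10-lower genes above 0 in HH10, 27 were not called against all 3 in the authors' deposited table. These calls use the same values as the 2-fold rule and add no independent evidence.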

How the data were processed

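Total RNA was extracted with Trizol and sequenced with Illumina library protocols, per the labels' protocols. Reads were placed on build galGal4 by the authors, and TopHat2 2.0.8, Cufflinks and Cuffdiff are named, per the submitters' processing notes. The deposited values are FPKM per gene and library and a p-value and q-value per pair of stages, per the file headers. Depth is unknown because FPKM keeps no read counts, so no counting interval can be given, and an exact 0 can be a failed estimate. Of 17108 rows, those of 1 symbol were summed and rows without a symbol kept apart, which left 17012 genes. The 11773 that reached 1 FPKM in any library were compared, with a pseudocount of 1. Coordinates are those of the deposited loci, counted from 1. A locus can hold several rows (2910 rows share one). Row names gave the small RNA families. Of 1029 list entries, 796 matched a symbol and 53 a RefSeq synonym, and 717 were compared. Named genes were the largest differences with a symbol on each class of locus and in each list, all members on W and the mitochondrial genome and the ribosomal RNA rows. Other members were named so that all are accounted for, and further list genes as examples after their values were seen. With 1 library per stage no test was made. The 2-fold rule was run on simulated data with little noise, in which well expressed genes were moved 4-fold in HH10. That run checks the code and does not cover levels near 0. The rule, the members and the lists were chosen with earlier results of these data known. Alternatives covered the pseudocount, the filter, the scaling, the summing of rows, a 4-fold rule and leaving out each later library, and 1 subset was added after the data were seen. Python 3.11.15, pandas 2.3.3, numpy 2.4.6 and matplotlib 3.10.9 were used.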

Additional observations from a re-analysis of the deposited data

How the results depend on the processing

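The counts depend on the scale. With a pseudocount of 0.1, 126 genes were HH10-higher and 107 lower (106 and 73 on numbered chromosomes), and with 5, 44 and 25 (39 and 9; Z higher 2; unplaced 1 higher and 11 lower; heart list 1). A 4-fold rule gave 31 and 29 (29 and 6 on numbered chromosomes; Z, unplaced and mitochondrial higher 1, 1 and 0; small RNA rows 27; heart list 0). Scaling to the same total FPKM gave 44 lower on numbered chromosomes, 3 higher on Z, 4 higher on unplaced scaffolds and 1 higher mitochondrial row, and shared 113 of the 130 genes. A minimum of 5 FPKM left 4 higher on unplaced scaffolds and 1 in the heart list. Without small RNA rows, short loci, W and unplaced scaffolds, chosen after seeing the data, 24 were higher and 22 lower.

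Leaving out 1 later library widens the rule, so it had to keep all 130 genes. It gave 93 to 149 higher genes and 70 to 185 lower, with 125 and 185 without HH11 and 149 and 111 without HH13. On numbered chromosomes it gave 73 to 123 higher and 38 to 140 lower, on Z 9 to 18 higher, on unplaced scaffolds 8 to 12 higher, and among small RNA rows 6 to 7 lower.

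The Z median of 0.49 was 0.58 and 0.29 with pseudocounts of 0.1 and 5, 0.34 with no filter, 0.56 with a minimum of 5 FPKM, 0.31 at the same total, 0.57 at the same total without small RNA rows and short loci, and 0.47 to 0.52 without 1 library. The W median of -3.15, which rests on genes at 0, was -6.19, -1.38 and -2.48 with pseudocounts of 0.1 and 5 and with no filter. The unplaced median of -0.01 was 0.0025 with a pseudocount of 0.1, 0.0059 with median of ratios scaling, -0.18 at the same total and 0.077 at that total without small RNA rows and short loci, and ranged from -0.041 to 0.052 without 1 library. The cause was not tested.

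For the other libraries the counts of higher and lower genes were 97 and 471 (HH11), 34 and 102 (HH12) and 304 lower (HH13) with a pseudocount of 0.1. They were 22 and 84, 10 and 7, and 293 and 82 with 5, and 14 and 19, 7 and 7, and 67 and 39 under the 4-fold rule. At the same total, HH11 had 87 and 137, and in the added subset HH11 had 33 higher and HH12 9 and 10. Without 1 library, HH11 had 61 to 144 higher and 222 to 358 lower, and HH12 62 to 141 and 52 to 111.

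Of 48 named genes, 0 changed direction under any setting. The 2-fold rule that chose them left almost no room for such a change, so this adds no support. The rule was missed by 24 with a pseudocount of 5, 29 under the 4-fold rule and 10 at the same total. At that total without small RNA rows and short loci, 3 missed it. No paired analysis was possible because each stage has 1 library and no value comes from a test.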
